A study of Mus musculus with 13 samples.

Results

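The tumor necrosis factor (TNF) superfamily comprises trimeric ligands, most of them made as membrane proteins, and the receptors that bind them. The genes described here are those whose symbol has the Tnfsf (ligand) or Tnfrsf (receptor) form in the deposited count table, together with Tnf, Lta, Ltb and Ltbr. This rule gave 35 of the 23418 genes of the table, 14 ligands and 21 receptors, and used no measured value. The data are bulk RNA-seq read counts from 13 mouse libraries in 3 groups: 4 of muscle FAP (replicates 2 to 5), 5 of lung FAP (replicates 1 to 5) and 4 of MEF (replicates 1 to 4). FAP commonly stands for fibro/adipogenic progenitor, a PDGFRA-positive mesenchymal cell of muscle and other tissues, and MEF for mouse embryonic fibroblast, a cell grown in culture. The sources used here do not give genotype, strain, age, sex, treatment, the cell sort or the MEF passage. No label ties a replicate to its own animal or culture, so p-values measure the spread between these libraries, which may be technical.

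Receptors of this family carry cysteine-rich repeats outside the cell. Some signal through an intracellular death domain, which can recruit caspases, and others through TRAF adaptors, which activate NF-kB and MAP kinases, and decoy receptors bind a ligand without passing on a death signal. In connective tissue the family is known for inflammatory activation of fibroblasts by TNF, for lymphoid stroma organised by lymphotoxin, for bone turnover under RANKL and for support of B cells by BAFF.

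Assigned reads ranged from 41327292 to 44699463 per library in muscle FAP, from 28636183 to 35464622 in lung FAP and from 33756915 to 41466585 in MEF. Levels below are CPM, counts scaled to the depth of each library with TMM factors, and are listed in the order of the replicate numbers. Errors are SD over 4 muscle FAP, 5 lung FAP and 4 MEF libraries. The FAP markers Pdgfra, Ly6a and Cd34 summed to between 3614 and 3915 CPM in muscle FAP, between 2591 and 4066 CPM in lung FAP and between 113 and 159 CPM in MEF, with no marker at 0. Muscle FAP held few reads of endothelial and macrophage markers. There 8 endothelial markers summed to 3.58 to 12.2 CPM and 12 macrophage and monocyte markers to 5.33 to 7.90 CPM, with 4 or 5 of the latter at 0. Satellite cell and muscle fibre markers (6) summed to 13.8 to 17.0 CPM in muscle FAP, 2.86 to 20.7 CPM in lung FAP and 42.9 to 64.2 CPM in MEF. Lung FAP libraries differed more, with endothelial sums of 56.1 to 681 CPM, highest in lung FAP 2, and 9 lung epithelial markers at 42.1 to 8793 CPM, highest in lung FAP 3. Macrophage markers summed to 34.8 to 79.1 CPM in lung FAP 1, 2, 4 and 5, to 667 CPM in lung FAP 3 and to 184 to 636 CPM in MEF. A single marker, Lyz2, gave 615 CPM of the sum in lung FAP 3 and 67.6 to 322 CPM in MEF. Smooth muscle and pericyte markers (8) summed to 77.6 to 88.3, 321 to 1967 and 2178 to 3739 CPM in muscle FAP, lung FAP and MEF. Neutrophil markers (5) summed to 3.38 to 7.02, 18.3 to 72.9 and 2.23 to 3.59 CPM in the same order. Acta2 alone gave 1856 to 3354 CPM of the smooth muscle and pericyte sum in MEF. Mesothelial markers (6) summed to 415 to 948 CPM in lung FAP, above all libraries of muscle FAP (1.21 to 28.2 CPM) and MEF (120 to 157 CPM). Lymphocyte markers (13) summed to 1.16 to 2.42 CPM in muscle FAP, 1.63 to 7.96 CPM in lung FAP and 2.82 to 7.56 CPM in MEF. The defining markers Pecam1 and Ptprc had means of 39.4 and 10.5 CPM in lung FAP. In bulk RNA, more cells of a type and more RNA per cell cannot be told apart, and the part of these markers in the member results was not tested unless a value is given.

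Of the 35 members, 28 had enough reads to be tested. Fewer ligands than receptors were abundant: a mean of at least 10 CPM was reached by 2 of 14 ligands in muscle FAP, 3 in lung FAP and 0 in MEF, against 6, 6 and 9 of 21 receptors. In all 3 groups 11 members lay under 1 CPM, and Tnfrsf8 and Tnfrsf17 had no count in any library. The other 5 untested members, Lta, Tnfsf4, Tnfrsf9, Tnfrsf13b and Tnfrsf13c, reached at most 0.391, 0.239, 0.465, 0.149 and 0.598 CPM in any library.

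**Figure D1:**
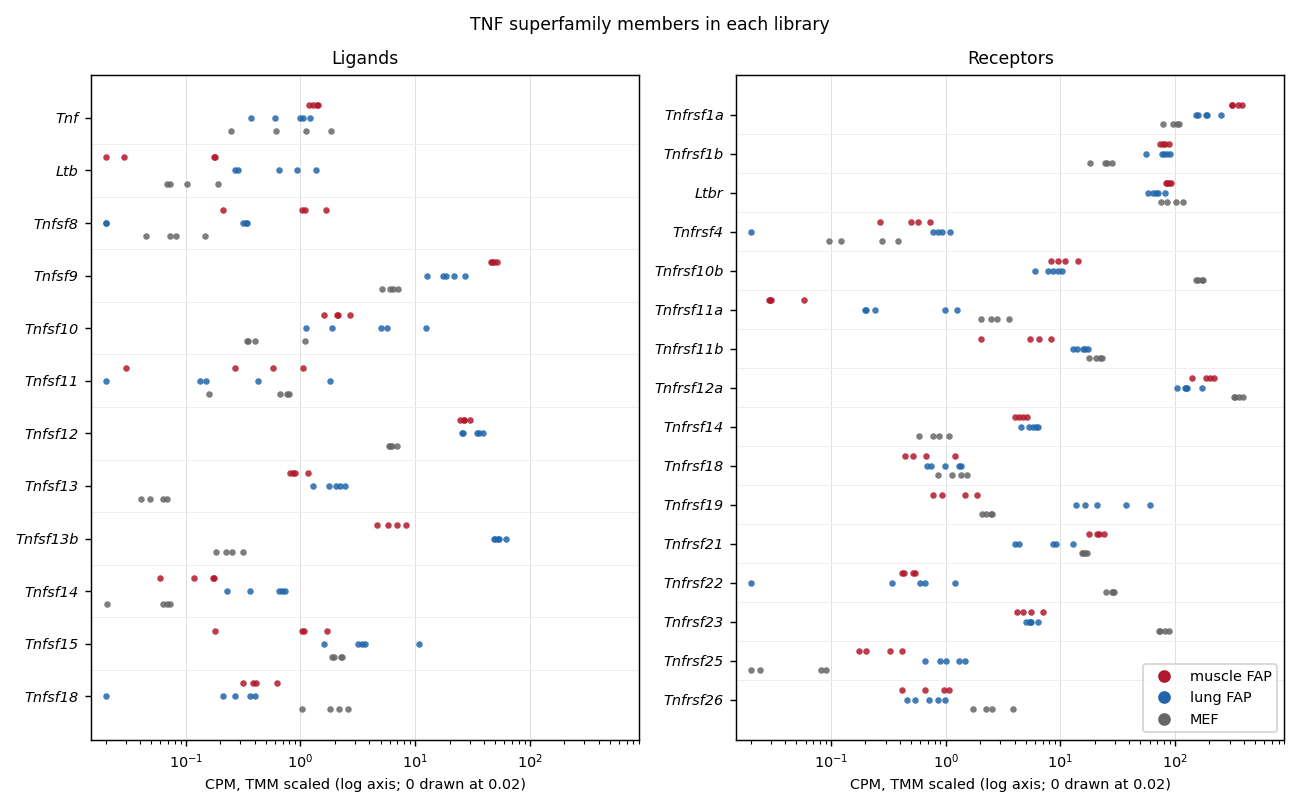
CPM (log axis, TMM scaled, 0 drawn at 0.02) of the 28 tested members in each library, ligands on the left and receptors on the right, with each point a library colored by group. The receptors Tnfrsf1a, Tnfrsf12a, Tnfrsf1b and Ltbr lie above 10 CPM in every library, while most ligands lie below 10 CPM. In MEF Tnfrsf10b and Tnfrsf23 lie further to the right than Tnfrsf1b.

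Among members that averaged at least 5 CPM in either group, muscle FAP and lung FAP differed by the largest folds in the BAFF-coding ligand and an orphan receptor, both higher in lung. Tnfsf13b (BAFF) was 8.33-fold and Tnfrsf19 23.4-fold higher in lung FAP, whereas Tnfsf9 (4-1BB ligand), Tnfrsf21 and Tnfrsf1a were 2.46-, 2.68- and 1.81-fold higher in muscle FAP. By edgeR's quasi-likelihood test with adjusted p under 0.05, 6 of the 28 tested members were higher in muscle FAP (Tnfsf8, Tnfsf9, Tnfrsf1a, Ltbr, Tnfrsf12a and Tnfrsf21). Another 9 were lower (Ltb, Tnfsf13, Tnfsf13b, Tnfsf14, Tnfsf15, Tnfrsf11a, Tnfrsf11b, Tnfrsf19 and Tnfrsf25) and 13 did not pass. Over all 15412 genes tested, 48.2% passed, 23.2% higher and 25.0% lower in muscle FAP, and the members' share was 53.6%. The members' median log2 fold change was -0.24, against -0.037 over all genes. Scaling by library size alone moved the median of all genes to -0.44, so that 18.84% of the genes called were higher in muscle FAP in place of 48.14%. It left 3 members higher (Tnfsf9, Tnfrsf1a and Tnfrsf21) and 14 lower.

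Against MEF, muscle FAP had higher levels of TNF receptors and of several ligands and lower levels of the TRAIL-binding receptors. In muscle FAP 10 of 28 members were higher (Tnfsf8, Tnfsf9, Tnfsf10, Tnfsf12, Tnfsf13, Tnfsf13b, Tnfrsf1a, Tnfrsf1b, Tnfrsf14 and Tnfrsf25) in the edgeR test. Another 8 were lower (Tnfsf18, Tnfrsf10b, Tnfrsf11a, Tnfrsf11b, Tnfrsf12a, Tnfrsf22, Tnfrsf23 and Tnfrsf26) and 10 did not pass. That is 64.3% of the members tested, where 73.5% of all genes passed, 36.1% higher and 37.3% lower. The members' median log2 fold change was 0.12, against -0.041 over all genes, whose median moved to -0.62 under library size alone, with 31.72% of the calls higher in place of 49.18%.

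In lung FAP against MEF, 12 of 28 members were higher (Ltb, Tnfsf9, Tnfsf10, Tnfsf12, Tnfsf13, Tnfsf13b, Tnfsf14, Tnfrsf1a, Tnfrsf1b, Tnfrsf14, Tnfrsf19 and Tnfrsf25) by edgeR. Another 9 were lower (Tnfsf18, Ltbr, Tnfrsf10b, Tnfrsf11a, Tnfrsf12a, Tnfrsf21, Tnfrsf22, Tnfrsf23 and Tnfrsf26) and 7 did not pass. The share of members passing was 75%, and that of all genes 74.4%, 37.8% higher and 36.6% lower. Their median log2 fold change was 1.03, against 0.019 over all genes (-0.15 under library size alone). The 3 comparisons share their libraries in pairs and are not independent, so the values of each are given side by side below.

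**Figure D2:**
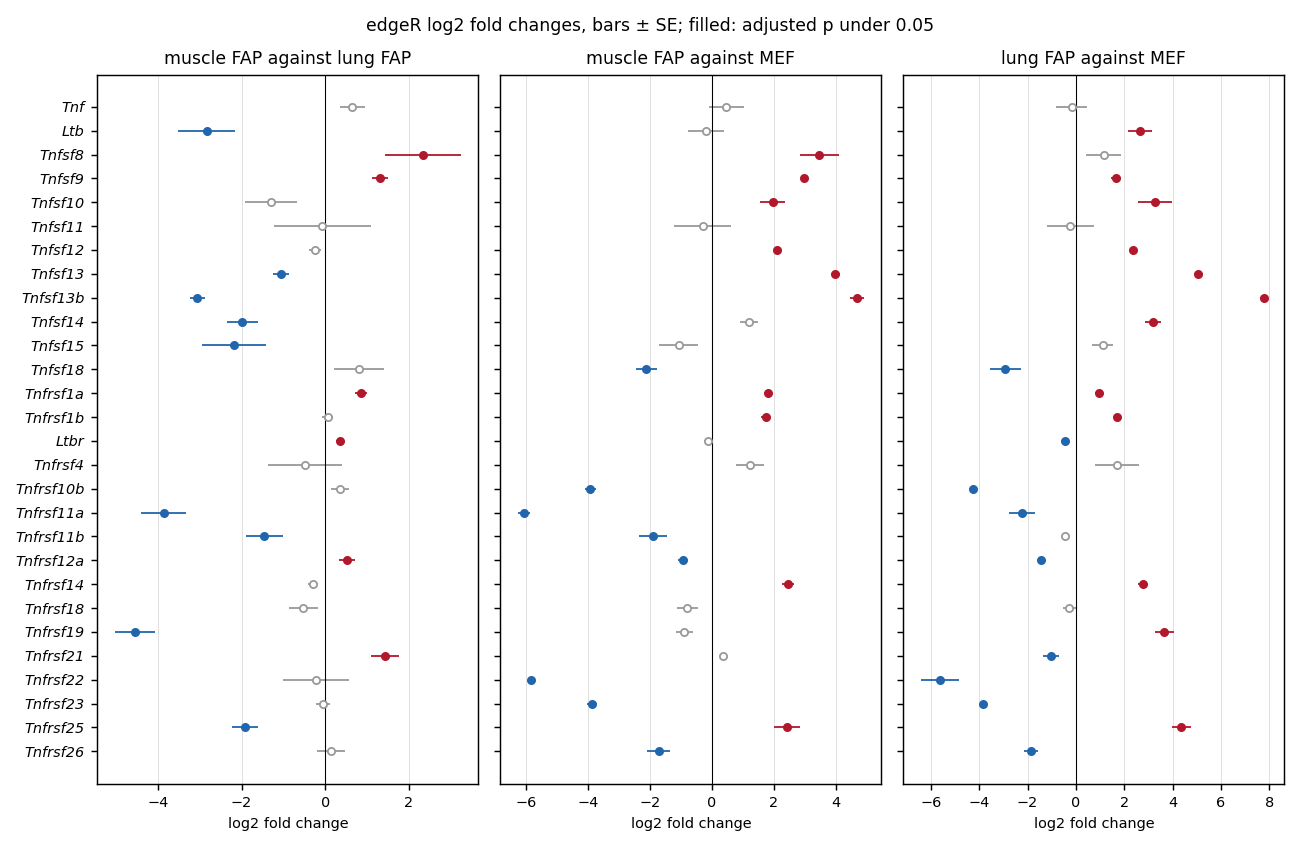
Log2 fold change of each tested member in the 3 comparisons (positive: higher in the first group named), with bars of 1 SE and filled points where the edgeR adjusted p was under 0.05. Tnfsf13b, Tnfrsf19 and Tnfrsf11a lie far to the left in muscle FAP against lung FAP. Tnfrsf10b, Tnfrsf22 and Tnfrsf23 lie far to the left in both comparisons with MEF. Tnfrsf11a, with 5 reads in muscle FAP, lies furthest to the left in muscle FAP against MEF.

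The founding ligands of the family were hardly detected, whereas their receptors were among its highest transcripts. Tnf, the ligand of both TNF receptors, stood at 1.28, 1.39, 1.18 and 1.44 CPM in muscle FAP, 1.20, 0.371, 1.04, 0.997 and 0.602 CPM in lung FAP and 1.84, 0.616, 0.25 and 1.13 CPM in MEF. The groups overlapped, and Tnf did not pass the edgeR test in any comparison (adjusted p = 0.307, 0.437 and 0.751). Tnf, Lta and Ltb lie side by side on chromosome 17 of mm10, with 1.2 kb between Lta and Tnf and 3.1 kb between Tnf and Ltb. Lta, the lymphotoxin subunit that is secreted, reached at most 0.391 CPM.

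Ltb, the membrane subunit of lymphotoxin, stood at 0, 0.177, 0.0288 and 0.180 CPM in muscle FAP, 0.286, 0.942, 0.656, 1.36 and 0.271 CPM in lung FAP and 0.0727, 0.191, 0.0682 and 0.102 CPM in MEF. All lung FAP libraries were above all libraries of the other groups, at 1.36 CPM or less. Its log2 fold change was -2.83 (SE 0.68, adjusted p = 0.0104) in muscle FAP against lung FAP, and 2.65 (SE 0.48, adjusted p = 0.00697) in lung FAP against MEF (edgeR). Lung FAP 2 and 4, the highest for Ltb, also had the highest endothelial and lymphocyte marker sums (681 and 212 CPM, and 7.96 and 4.92 CPM). Without lung FAP 2, 3 and 4, neither call remained, at -1.51 (adjusted p = 0.199) and 1.31 (adjusted p = 0.196).

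Ltb was also 1 of the 3 members with a match to the NF-kB consensus in the RefSeq promoter table (250 bases before to 50 after the start, GRCm38.p6), which held promoters of 28 of the 35 members. The consensus was searched on both strands and occurred in 3 of 32 member promoters (9.38%) and in 1480 of all 32851 promoters of that length (4.51%). The windows around the matches are shown because NF-kB is the pathway these receptors feed into, with the matching bases in capitals, 5′ to 3′ on the strand of the gene. The Ltb window is chr17:35194380-35194449 on the plus strand (-127 to -58 from the start), that of Tnfrsf8 chr4:145315303-145315372 on the minus strand (-208 to -139) and that of Tnfrsf9 chr4:150927947-150927976 on the plus strand (-52 to -23).
Ltb: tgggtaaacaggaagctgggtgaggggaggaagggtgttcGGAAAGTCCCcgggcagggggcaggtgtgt
Tnfrsf8: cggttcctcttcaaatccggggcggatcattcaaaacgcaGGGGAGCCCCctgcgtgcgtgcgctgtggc
Tnfrsf9: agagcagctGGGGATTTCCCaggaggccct
In Tnfrsf9 3 matches overlap, and all 30 bases of its window lie in an annotated exon. GENCODE vM21 starts that gene at 150914562, upstream of the window. The Ltb window overlaps annotated exon at 11 of its 70 bases. All 3 genes were low or without reads here. Ltb reached at most 1.36 CPM, in lung FAP, and Tnfrsf8 had no count. Tnfrsf9 had counts of 0, 11, 4, 14 and 0 in lung FAP, 3, 1, 2 and 1 in MEF and none in muscle FAP.

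Tnfrsf1a, the death-domain receptor for soluble TNF, stood at 314, 357, 383 and 315 CPM in muscle FAP, 253, 160.2, 191, 153 and 187 CPM in lung FAP and 95.9, 109, 105 and 79.0 CPM in MEF. No library of any group reached into the range of the next group, and the order was muscle FAP (342 ± 33.9 CPM), lung FAP (189 ± 39.6) and MEF (97.3 ± 13.4). The edgeR log2 fold change was 0.86 (SE 0.15, adjusted p = 0.000176) in muscle FAP against lung FAP. Against MEF it was 1.81 (SE 0.13, adjusted p = 5.29e-08) in muscle FAP and 0.96 (SE 0.16, adjusted p = 2.82e-05) in lung FAP. Under library size alone the muscle to lung difference was 0.46 (adjusted p = 0.00574).

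Tnfrsf1b, the TRAF-binding receptor for membrane TNF, stood at 78.1, 88.8, 81.8 and 74.6 CPM in muscle FAP, 79.6, 56.2, 90.4, 85.3 and 77.5 CPM in lung FAP and 25.5, 28.1, 18.3 and 24.4 CPM in MEF. Muscle FAP and lung FAP overlapped and both lay above MEF, by 3.36-fold and 3.23-fold (edgeR log2 fold changes 1.75, SE 0.14, adjusted p = 5.69e-08 for muscle FAP and 1.69, SE 0.18, adjusted p = 5.09e-08 for lung FAP). The muscle to lung difference was 0.055 (SE 0.13, adjusted p = 0.772) and turned to -0.34 (adjusted p = 0.0354) under library size alone.

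Ltbr, the lymphotoxin receptor, lies 35.5 kb from Tnfrsf1a on chromosome 6 and did not share its pattern of levels. It stood at 87.8, 84.2, 85.1 and 92.3 CPM in muscle FAP, 81.5, 64.3, 68.4, 57.8 and 70.5 CPM in lung FAP and 84.6, 102, 118 and 75.5 CPM in MEF. Muscle FAP was 1.28-fold above lung FAP (log2 fold change 0.35, SE 0.087, adjusted p = 0.0325, edgeR), with no overlap, and this call rested on the setting: it was -0.051 (adjusted p = 0.733) under library size alone and 0.28 (adjusted p = 0.0654) under upper-quartile scaling. Leaving out lung FAP 3, lung FAP 4 or any muscle FAP library also ended it (adjusted p between 0.0534 and 0.0724). Lung FAP against MEF gave -0.47 (SE 0.17, adjusted p = 0.00326) with overlapping groups (-0.34, adjusted p = 0.0692 without lung FAP 2, 3 and 4). Muscle FAP against MEF gave -0.12 (SE 0.15, adjusted p = 0.417).

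Tnfrsf14 (HVEM), a receptor for LIGHT, separated FAPs of either tissue from MEF. It stood at 4.37, 3.99, 4.75 and 5.15 CPM in muscle FAP, 6.42, 5.28, 4.53, 6.12 and 5.78 CPM in lung FAP and 0.776, 1.06, 0.591 and 0.881 CPM in MEF. The log2 fold change was 2.46 (SE 0.18, adjusted p = 1.34e-07) in muscle FAP and 2.76 (SE 0.19, adjusted p = 2.8e-08) in lung FAP against MEF (edgeR). Between the FAP groups, which overlapped, it was -0.30 (SE 0.12, adjusted p = 0.243). Its ligand Tnfsf14 (LIGHT) reached at most 0.731 CPM, with means of 0.131, 0.532 and 0.0563 CPM in muscle FAP, lung FAP and MEF. It passed in muscle FAP against lung FAP (-1.99, SE 0.37, adjusted p = 0.0118) and in lung FAP against MEF (3.18, SE 0.34, adjusted p = 0.000314).

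**Figure D3:**
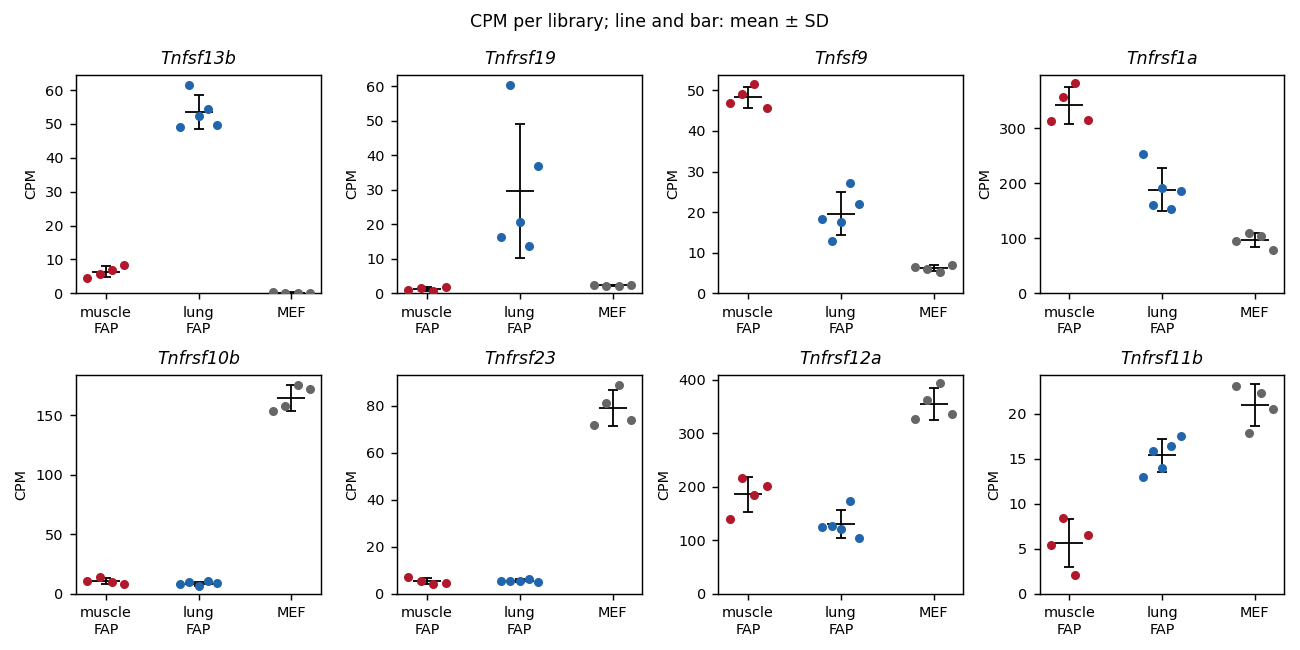
CPM per library (points), group mean (long line) and SD (bar) of 8 members on linear axes that start at 0. Tnfsf13b and Tnfrsf19 are high in lung FAP, Tnfsf9 and Tnfrsf1a step down from muscle FAP to MEF, and Tnfrsf10b, Tnfrsf23 and Tnfrsf12a are highest in MEF.

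Tnfsf13b encodes BAFF, a survival factor for B cells that stromal and myeloid cells make, and lies at 10006467 to 10039072 on the plus strand of chromosome 8. It stood at 4.66, 5.80, 6.91 and 8.29 CPM in muscle FAP, 49.2, 61.5, 52.4, 54.4 and 49.7 CPM in lung FAP and 0.315, 0.255, 0.182 and 0.225 CPM in MEF. The 3 groups were far apart with a narrow spread in each: lung FAP (53.4 ± 4.99 CPM) was 8.33-fold above muscle FAP (6.41 ± 1.55) and 219-fold above MEF (0.244 ± 0.0559). The edgeR log2 fold change was -3.06 (SE 0.19, adjusted p = 2.69e-09) for muscle FAP against lung FAP. The changes against MEF were 7.76 (SE 0.15, adjusted p = 3.28e-13) for lung FAP and 4.70 (SE 0.22, adjusted p = 3.58e-11) for muscle FAP.

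Within lung FAP the Tnfsf13b levels spanned 49.2 to 61.5 CPM. Lung FAP 2 and 4, the highest of the group, also had the highest endothelial sums (681 and 212 CPM) and lymphocyte sums (7.96 and 4.92 CPM). The macrophage sum was 79.1 and 36.3 CPM in these libraries. In lung FAP 3 it was 667 CPM, of which Lyz2 alone gave 615 CPM, and Tnfsf13b was 52.4 CPM. The mesothelial, neutrophil and lung epithelial sums, like Tnfsf13b, were higher in every lung FAP library than in the other groups. Within lung FAP the mesothelial sum was highest in lung FAP 1, the lowest for Tnfsf13b. The neutrophil and lung epithelial sums were highest in lung FAP 3. The part of these cells in the Tnfsf13b level was not tested. The muscle to lung change was -3.00 (adjusted p = 2.74e-08) without lung FAP 2 and 3, and -2.95 (adjusted p = 1.26e-07) without lung FAP 2, 3 and 4. The 3 receptors that BAFF or APRIL bind, Tnfrsf13b (TACI), Tnfrsf13c (BAFF receptor) and Tnfrsf17 (BCMA), are known from B cells and were too low to test: Tnfrsf17 had no count, Tnfrsf13b means were 0, 0.0199 and 0.0698 CPM and Tnfrsf13c means 0.0297, 0.318 and 0.0332 CPM in muscle FAP, lung FAP and MEF.

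Tnfsf13 encodes APRIL and lies 0.5 kb from Tnfsf12 on chromosome 11. It stood at 0.815, 1.15, 0.893 and 0.868 CPM in muscle FAP, 2.43, 2.03, 1.28, 1.76 and 2.23 CPM in lung FAP and 0.0485, 0.0637, 0.0682 and 0.0410 CPM in MEF. The groups did not overlap and held the same order as Tnfsf13b. Muscle FAP against lung FAP gave a log2 fold change of -1.06 (SE 0.19, adjusted p = 0.0154) by edgeR, which did not pass with the replicate number as a block (-1.0, adjusted p = 0.0678). Muscle FAP and lung FAP were above MEF by 4.0 (SE 0.13, adjusted p = 5.13e-07) and 5.06 (SE 0.18, adjusted p = 3.49e-08). A read-through gene, Tnfsfm13, shares 60.05% of the Tnfsf13 exon bases and 48.25% of those of Tnfsf12 in GENCODE vM21. The antisense Tnfsf13os overlaps 13.5% of Tnfsf13, so the split of reads between these genes is uncertain.

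Tnfsf12 (TWEAK) and its receptor Tnfrsf12a (FN14) moved in opposite directions between FAPs and MEF. Tnfsf12 stood at 26.4, 24.8, 26.8 and 30.4 CPM in muscle FAP, 35.7, 25.6, 34.4, 26.0 and 39.2 CPM in lung FAP and 6.35, 6.94, 6.02 and 5.96 CPM in MEF. Every FAP library was above every MEF library, with log2 fold changes of 2.1 (SE 0.079, adjusted p = 4.41e-09) and 2.35 (SE 0.13, adjusted p = 8.96e-10) for muscle FAP and lung FAP (edgeR). The FAP groups overlapped (-0.25, SE 0.14, adjusted p = 0.134), and their difference passed without lung FAP 2, 3 and 4, at -0.47 (adjusted p = 0.0086).

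Tnfrsf12a, a small TRAF-binding receptor known to rise in injured tissue, stood at 139.9, 217, 185 and 201 CPM in muscle FAP, 124, 127, 121, 174 and 104 CPM in lung FAP and 326, 362, 395 and 336 CPM in MEF. All MEF libraries were above all FAP libraries, and the edgeR log2 fold change was -0.93 (SE 0.15, adjusted p = 7.29e-05) in muscle FAP and -1.45 (SE 0.13, adjusted p = 3.48e-07) in lung FAP against MEF. Muscle FAP and lung FAP overlapped, since lung FAP 4 (174 CPM) was above muscle FAP 2 (140 CPM). Their difference passed at 0.52 (SE 0.18, adjusted p = 0.00971) and not under library size alone (0.11, adjusted p = 0.564).

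The death receptor for TRAIL, a ligand that can trigger apoptosis, and its membrane decoys Tnfrsf22 and Tnfrsf23 were higher in MEF than in either FAP group. Tnfrsf10b, the death-domain receptor for TRAIL in mouse, lies at 69767472 to 69784411 on the plus strand of chromosome 14. It stood at 11.0, 14.4, 9.59 and 8.26 CPM in muscle FAP, 7.88, 9.56, 6.05, 10.3 and 8.61 CPM in lung FAP and 154, 157, 175 and 172 CPM in MEF. MEF was 15.2-fold above muscle FAP (log2 fold change -3.93, SE 0.18, adjusted p = 5.57e-11). It was 19.4-fold above lung FAP (-4.28, SE 0.14, adjusted p = 9.61e-12, edgeR). Between the FAP groups, which overlapped, it was 0.35 (SE 0.22, adjusted p = 0.0886), and it passed without lung FAP 4 (0.44, adjusted p = 0.0425) or without muscle FAP 5 (0.46, adjusted p = 0.0315).

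Tnfrsf26, Tnfrsf22 and Tnfrsf23 lie in a row on the minus strand of mouse chromosome 7, between 143607659 and 143685872 in mm10, with 6.1 kb and 16.1 kb between neighbours. Tnfrsf22 and Tnfrsf23 encode decoy receptors for TRAIL without a death domain. Their coding sequences are close copies: over 528 aligned bases 479 were identical (90.7%), while Tnfrsf26 matched Tnfrsf22 at 320 of 501 bases (63.9%) and Tnfrsf23 at 284 of 473 (60%). A stretch of 120 coding bases from GENCODE vM21, bases 384 to 503 of Tnfrsf22 and 354 to 473 of Tnfrsf23, is shown because reads from it can hardly be told apart. The 2 bases that differ are in capitals and the other 118 are the same.
Tnfrsf22: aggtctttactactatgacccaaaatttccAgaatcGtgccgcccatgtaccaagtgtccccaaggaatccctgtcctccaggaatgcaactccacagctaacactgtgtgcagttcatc
Tnfrsf23: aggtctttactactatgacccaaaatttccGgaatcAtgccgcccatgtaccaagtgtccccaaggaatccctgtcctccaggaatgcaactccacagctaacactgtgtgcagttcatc
Of the 50-base words of Tnfrsf22, 719 (17.3%) also occur in Tnfrsf23, so the split of reads between the pair is uncertain. The share of words does not measure the share of reads affected.

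Tnfrsf22 stood at 0.437, 0.414, 0.518 and 0.539 CPM in muscle FAP, 0, 0.343, 0.596, 0.665 and 1.20 CPM in lung FAP and 25.2, 28.2, 29.6 and 29.0 CPM in MEF. Tnfrsf23 stood at 7.02, 5.59, 4.20 and 4.70 CPM in muscle FAP, 5.44, 5.42, 5.54, 6.38 and 5.03 CPM in lung FAP and 72.1, 81.4, 89.0 and 74.1 CPM in MEF. Both decoys were higher in every MEF library than in any FAP library, and neither separated the FAP groups (adjusted p = 0.772 and 0.803). For Tnfrsf22 the edgeR log2 fold change was -5.87 (SE 0.10, adjusted p = 5e-07) in muscle FAP and -5.64 (SE 0.79, adjusted p = 2.21e-07) in lung FAP against MEF. For Tnfrsf23 it was -3.88 (SE 0.17, adjusted p = 9.83e-12) and -3.83 (SE 0.089, adjusted p = 3.84e-12).

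Tnfrsf26, the neighbour whose ligand is not established, stood at 1.08, 0.976, 0.662 and 0.419 CPM in muscle FAP, 0.458, 0.542, 0.715, 0.864 and 0.993 CPM in lung FAP and 3.83, 2.27, 1.75 and 2.56 CPM in MEF. It too was higher in MEF, with non-overlapping groups and smaller differences: -1.73 (SE 0.37, adjusted p = 0.00125) for muscle FAP and -1.86 (SE 0.30, adjusted p = 0.000369) for lung FAP (edgeR). The antisense gene E230032D23Rik overlaps 4.14% of the exon bases of Tnfrsf23 and 3.33% of those of Tnfrsf26.

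Tnfsf10, which encodes TRAIL itself, went the other way. It stood at 2.71, 2.1, 2.13 and 1.62 CPM in muscle FAP, 1.12, 12.6, 1.88, 5.65 and 5.09 CPM in lung FAP and 0.339, 0.403, 1.09 and 0.348 CPM in MEF. Each FAP library was above each MEF library, with log2 fold changes of 1.97 (SE 0.40, adjusted p = 0.0119) in muscle FAP and 3.26 (SE 0.71, adjusted p = 0.000315) in lung FAP (edgeR). The muscle FAP call did not hold under library size alone (1.40, adjusted p = 0.063) or in limma-voom (2.12, adjusted p = 0.0649). The lung FAP libraries ran from 1.12 to 12.6 CPM, overlapping muscle FAP (-1.30, SE 0.62, adjusted p = 0.0791). The highest was lung FAP 2, the library with the most endothelial reads, and without lung FAP 2, 3 and 4 the change against MEF was 2.49 (adjusted p = 0.00135). Between the FAP groups, leaving out lung FAP 2 gave -0.67 (adjusted p = 0.29). Leaving out lung FAP 1 or 3 instead gave -1.56 (adjusted p = 0.0199) and -1.51 (adjusted p = 0.0385). The difference also passed under library size alone (-1.76, adjusted p = 0.0228) and by DESeq2 (-1.30, adjusted p = 0.0433).

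RANKL, coded by Tnfsf11, drives osteoclast formation through RANK (Tnfrsf11a) and is blocked by the soluble decoy osteoprotegerin (Tnfrsf11b), which also binds TRAIL. Of the 3 the decoy had the highest level per kb of exon in every group. Tnfrsf11b stood at 5.39, 8.37, 2.04 and 6.56 CPM in muscle FAP, 13, 15.9, 14.0, 16.4 and 17.6 CPM in lung FAP and 23.1, 17.8, 22.3 and 20.5 CPM in MEF. Muscle FAP was below both other groups without overlap, with edgeR log2 fold changes of -1.46 (SE 0.45, adjusted p = 0.000577) against lung FAP and -1.90 (SE 0.45, adjusted p = 3.08e-05) against MEF. Lung FAP against MEF was -0.44 (SE 0.11, adjusted p = 0.139), did not overlap (17.6 CPM at most against 17.8 CPM at least), and passed in a fit of those groups alone (-0.46, adjusted p = 0.00781).

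Tnfrsf11a stood at 0.0582, 0.0296, 0.0288 and 0.0299 CPM in muscle FAP, 0.201, 1.26, 0.983, 0.199 and 0.241 CPM in lung FAP and 3.54, 2.82, 2.02 and 2.50 CPM in MEF. Muscle FAP held 5 reads in all 4 libraries, and the 3 groups did not overlap. The edgeR log2 fold change was -3.86 (SE 0.54, adjusted p = 0.000553) in muscle FAP against lung FAP. Muscle FAP and lung FAP were below MEF, at -6.09 (SE 0.20, adjusted p = 3.4e-06) and -2.23 (SE 0.55, adjusted p = 0.00152). Lung FAP 2 and 3, which carried the most endothelial and epithelial reads, were also the highest of their group, at 1.26 and 0.983 CPM, against 0.199 to 0.241 CPM in the rest. Without them the muscle to lung change was -2.45 (adjusted p = 0.00201) and the lung to MEF change -3.66 (adjusted p = 2.09e-06). Tnfsf11 ranged from 0.0299 to 1.05 CPM in muscle FAP, from 0 to 1.80 in lung FAP and from 0.159 to 0.800 in MEF. It did not pass in any comparison (edgeR adjusted p = 0.963, 0.807 and 0.843).

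Among the ligands known for costimulating T cells, Tnfsf9 was the highest in CPM per kb of exon in all 3 groups. It encodes the 4-1BB ligand and lies at 57105325 to 57107757 on the plus strand of chromosome 17 (GENCODE vM21, GRCm38, the same build as mm10). Tnfsf9 stood at 46.9, 49.0, 51.6 and 45.7 CPM in muscle FAP, 18.4, 12.8, 17.6, 27.1 and 22.1 CPM in lung FAP and 6.4, 6.07, 5.18 and 7.03 CPM in MEF. The groups were fully separate, at 48.3 ± 2.59 CPM in muscle FAP, 19.6 ± 5.33 in lung FAP and 6.17 ± 0.770 in MEF. The edgeR log2 fold change of muscle FAP against lung FAP was 1.30 (SE 0.18, adjusted p = 1.52e-05), and 0.90 (adjusted p = 0.000219) under library size alone. Muscle FAP and lung FAP were above MEF by 2.97 (SE 0.10, adjusted p = 1.68e-09) and 1.67 (SE 0.20, adjusted p = 5.01e-07). An antisense gene, Gm11110, overlaps 14.88% of the Tnfsf9 exon bases. Its receptor Tnfrsf9 was not testable, as given above.

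Tnfsf8 (CD30 ligand) stood at 1.11, 1.04, 1.67 and 0.210 CPM in muscle FAP, 0.344, 0.314, 0, 0.332 and 0 CPM in lung FAP and 0.0727, 0.149, 0.0454 and 0.0820 CPM in MEF. Levels were low, with 0 reads in lung FAP 3 and 5, and muscle FAP 5 lay inside the lung FAP range. Muscle FAP against MEF was 3.47 (SE 0.63, adjusted p = 0.00513) by edgeR. Against lung FAP it was 2.33 (SE 0.91, adjusted p = 0.0366). That call was lost without lung FAP 2 and 3 (2.14, adjusted p = 0.0574) and under library size alone (1.90, adjusted p = 0.0693). It was also lost without muscle FAP 2, 3 or 4 or any 1 MEF library (adjusted p between 0.0508 and 0.121 in these 7 fits). Tnfrsf8 (CD30), its receptor, had no count.

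Tnfsf18 (GITR ligand) was higher in MEF. It stood at 0.408, 0.384, 0.317 and 0.629 CPM in muscle FAP, 0, 0.400, 0.268, 0.366 and 0.211 CPM in lung FAP and 1.79, 1.04, 2.16 and 2.62 CPM in MEF. MEF lay above both FAP groups, with edgeR log2 fold changes of -2.12 (SE 0.33, adjusted p = 0.00773) for muscle FAP and -2.92 (SE 0.63, adjusted p = 0.000543) for lung FAP. Between the FAP groups the value was 0.80 (SE 0.59, adjusted p = 0.314). Its receptor Tnfrsf18 (GITR) averaged 0.707, 1.02 and 1.23 CPM in muscle FAP, lung FAP and MEF and did not pass in any comparison (adjusted p = 0.303, 0.0998 and 0.544). An antisense gene, Gm16008, overlaps 27.17% of its exon bases. Tnfsf4 (OX40 ligand) was untested at a mean of at most 0.0744 CPM, and its receptor Tnfrsf4 (OX40) averaged 0.519, 0.732 and 0.221 CPM with no call (edgeR adjusted p = 0.624, 0.193 and 0.0641). Without lung FAP 1, where Tnfrsf4 had no read, lung FAP against MEF passed at 2.04 (adjusted p = 0.00194) and muscle FAP against MEF at 1.23 (adjusted p = 0.038).

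Tnfsf15 (TL1A), a ligand known from endothelium, stood at 1.69, 1.04, 1.07 and 0.180 CPM in muscle FAP, 3.41, 10.8, 3.16, 1.60 and 3.64 CPM in lung FAP and 2.25, 2.29, 1.89 and 1.97 CPM in MEF. Lung FAP was 4.56-fold above muscle FAP in mean (-2.19, SE 0.77, adjusted p = 0.00539, edgeR), with lung FAP 4 below muscle FAP 2. Lung FAP 2 was the highest at 10.8 CPM and held 681 CPM of endothelial markers, against 56.1 to 212 CPM in the other 4, and without it the change was -1.55 (adjusted p = 0.0135). The comparisons with MEF did not pass (-1.08, SE 0.64, adjusted p = 0.103 for muscle FAP and 1.11, SE 0.44, adjusted p = 0.0747 for lung FAP). Muscle FAP against MEF passed without lung FAP 2 (-1.09, adjusted p = 0.0453). Lung FAP against MEF passed without lung FAP 4 (1.30, adjusted p = 0.0346) or muscle FAP 5 (1.09, adjusted p = 0.0379).

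The TL1A receptor Tnfrsf25 (DR3), a death-domain receptor, stood at 0.175, 0.325, 0.202 and 0.419 CPM in muscle FAP, 1.32, 0.999, 1.49, 0.897 and 0.662 CPM in lung FAP and 0.0242, 0, 0.0909 and 0.0820 CPM in MEF. The groups did not overlap, with lung FAP highest and MEF lowest. Muscle FAP against lung FAP gave a log2 fold change of -1.93 (SE 0.31, adjusted p = 0.0137) by edgeR, and -1.80 (adjusted p = 0.051) without muscle FAP 4. Against MEF it was 2.42 (SE 0.42, adjusted p = 0.00568) for muscle FAP and 4.35 (SE 0.39, adjusted p = 3.69e-05) for lung FAP.

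Tnfrsf19 and Tnfrsf21 lack an established partner among these ligands. Tnfrsf19 (TROY), a TRAF-binding relative of the ectodysplasin receptors, lies at 60963875 to 61046490 on the minus strand of chromosome 14. Its levels were 0.932, 1.48, 0.777 and 1.89 CPM in muscle FAP, 16.3, 60.5, 20.7, 13.6 and 37.0 CPM in lung FAP and 2.50, 2.25, 2.09 and 2.54 CPM in MEF. Its lowest lung FAP library was above every library of the other groups, and its spread in lung FAP was wide (29.6 ± 19.5 CPM). The edgeR log2 fold change was -4.54 (SE 0.49, adjusted p = 4.09e-06) in muscle FAP against lung FAP and 3.66 (SE 0.40, adjusted p = 4.02e-06) in lung FAP against MEF. Lung FAP 2 and 5 were the highest for Tnfrsf19 and also for pericyte and smooth muscle markers (1967 and 1250 CPM, against 321 to 659 in lung FAP 1, 3 and 4). MEF held 2178 to 3739 CPM of those markers, 1856 to 3354 CPM of it from Acta2, and had 2.09 to 2.54 CPM of Tnfrsf19. The markers differed in direction. Kcnj8, Cox4i2, Myh11 and Notch3 averaged 70.2, 21.2, 221 and 99.6 CPM in lung FAP and 0.734, 0.164, 23.3 and 28.2 CPM in MEF. Cspg4, Rgs5, Mcam and Acta2 averaged higher in MEF than in lung FAP. The mesothelial, neutrophil and lung epithelial marker sums, like Tnfrsf19, were higher in each lung FAP library than in the other groups. The part of pericytes, smooth muscle, mesothelium, neutrophils or lung epithelium in the Tnfrsf19 level was not tested. Without lung FAP 2 and 3 the changes were -4.15 (adjusted p = 9.04e-07) and 3.25 (adjusted p = 1.03e-06). Muscle FAP was below MEF in every library, at -0.89 (SE 0.29, adjusted p = 0.09), and passed without lung FAP 2 (-0.90, adjusted p = 0.0203).

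Tnfrsf21 (DR6), a death-domain receptor, stood at 23.8, 20.7, 21.6 and 17.6 CPM in muscle FAP, 9.14, 13, 8.58, 3.99 and 4.36 CPM in lung FAP and 15.5, 15.7, 16.5 and 17.0 CPM in MEF. Lung FAP was below both other groups with no overlap, at 1.42 (SE 0.34, adjusted p = 0.000563) for muscle FAP against lung FAP and -1.05 (SE 0.33, adjusted p = 0.0026) for lung FAP against MEF (edgeR). Muscle FAP against MEF was 0.37 (SE 0.095, adjusted p = 0.246), with no overlap between the groups, and passed in a fit of those groups alone (0.41, adjusted p = 0.00497).

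Per kilobase of exon, which allows genes to be compared, the order of the members differed between groups. In muscle FAP the highest were Tnfrsf1a (132 ± 13.1 CPM per kb), Tnfrsf12a (96.2 ± 17.2), Tnfsf9 (37.4 ± 2.01), Ltbr (37.1 ± 1.56) and Tnfrsf1b (21.2 ± 1.60). Tnfsf9 and Ltbr lay within each other's spread. In lung FAP they were Tnfrsf1a (72.8 ± 15.3), Tnfrsf12a (67.3 ± 13.4), Ltbr (29.1 ± 3.70), Tnfsf12 (21.2 ± 4.02) and Tnfrsf1b (20.4 ± 3.42). There the first 2 lay within each other's spread, as did the last 2. MEF was led by Tnfrsf12a (184 ± 15.9), followed by Ltbr (40.4 ± 8.08), Tnfrsf1a (37.5 ± 5.18), Tnfrsf10b (30.2 ± 1.97) and Tnfrsf23 (19.98 ± 1.95). Ltbr and Tnfrsf1a lay within each other's spread in MEF.

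**Figure D4:**
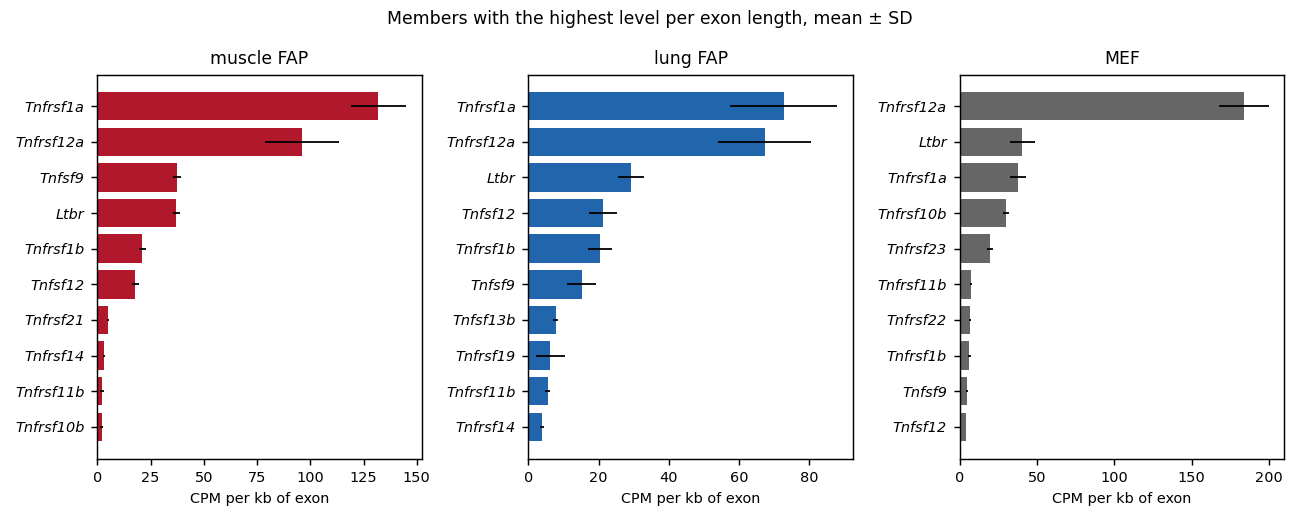
Mean level per kb of exon (bars, from 0) with SD for the 10 highest members of each group, on an axis of its own for each group. Tnfrsf1a leads in muscle FAP (132 CPM per kb) and lung FAP (72.8 CPM per kb) and Tnfrsf12a in MEF (184 CPM per kb).

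Relatives of the family with other symbols were examined in the same fits. Of 11 such genes 6 were tested, and in muscle FAP against lung FAP 3 were higher (Eda, Ngfr and Relt), 1 lower (Cd40) and 2 did not pass (Fas and Eda2r). That is 66.7% of those tested, against 48.2% of all genes. Eda, which encodes ectodysplasin, stood at 73.9, 64.7, 79.6 and 59.8 CPM in muscle FAP, 25.2, 13.7, 14.7, 12.5 and 15.4 CPM in lung FAP and 6.59, 6.98, 8.45 and 5.74 CPM in MEF. Its groups did not overlap. By edgeR, muscle FAP exceeded lung FAP by 2.09 (SE 0.20, adjusted p = 3.97e-07) on the log2 scale, and MEF by 3.32 (SE 0.15, adjusted p = 1.48e-09). Cd40, a receptor for T cell help, averaged 2.85 CPM in muscle FAP and 11.7 CPM in lung FAP (-2.03, SE 0.49, adjusted p = 0.000331). Relt, a receptor of unclear ligand, averaged 6.22 and 2.22 CPM (1.48, SE 0.35, adjusted p = 0.00109). Against MEF, Fas, the death-domain receptor of FasL, was higher in muscle FAP (69.3 against 14.8 CPM, 2.23, SE 0.19, adjusted p = 1.39e-06) and in lung FAP (56.7 CPM, 1.94, SE 0.27, adjusted p = 3.78e-06). Eda2r (23.7 and 19.7 against 152 CPM), Relt and Ngfr were lower in both, with Ngfr at -3.03 (SE 0.22, adjusted p = 8.62e-08) in lung FAP. The list counted 2 higher and 3 lower for muscle FAP (83.3%, against 73.5% of all genes) and 3 higher and 3 lower for lung FAP (100%, against 74.4%).

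Receptor adaptors and cell death genes split in direction. Of 18, 5 were higher and 3 lower in muscle FAP against lung FAP, a share of 44.4% against 48.2% of all genes. Traf4 averaged 28.6 and 12.9 CPM (1.14, SE 0.17, adjusted p = 4.2e-05) and Traf6 43.5 and 24.2 CPM (0.85, SE 0.13, adjusted p = 2.75e-05). Ripk1, a kinase at the branch between NF-kB and cell death, averaged 203 and 121 CPM (0.75, SE 0.13, adjusted p = 0.000124, edgeR). Under library size alone the split was 3 higher and 9 lower, and without lung FAP 2, 3 and 4 only 1 gene was lower. Muscle FAP against MEF had 8 higher and 6 lower (5 higher under library size alone) and lung FAP against MEF 7 and 5. Those shares, 77.8% and 66.7%, lie on either side of the 73.5% and 74.4% of all genes. Birc3 (cIAP2), an inhibitor of TNF-induced death, stood at 266 CPM in muscle FAP, 213 in lung FAP and 9.10 in MEF (4.87, SE 0.18, adjusted p = 5.19e-11 and 4.55, SE 0.20, adjusted p = 7.52e-11). Ripk3, the necroptosis kinase, stood at 12.4, 10.4 and 85.2 CPM (-2.78, SE 0.26, adjusted p = 1.13e-07 and -3.04, SE 0.27, adjusted p = 1.82e-08).

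In a list of NF-kB subunits, inhibitors, upstream kinases and other regulators, more genes were higher than lower in FAPs against MEF. Of 25 genes, 15 were higher and 5 lower in muscle FAP (9 lower under library size alone) and 16 higher and 1 lower in lung FAP (5 lower under library size alone). The median log2 fold changes were 1.25 and 0.64. The shares called were 80% in muscle FAP, above the 73.5% of all genes, and 68% in lung FAP, below their 74.4%. Nfkb1, which encodes p105/p50, stood at 711, 1038, 999 and 614 CPM in muscle FAP, 109, 145, 133, 172 and 126 CPM in lung FAP and 46.0, 48.5, 45.8 and 45.7 CPM in MEF. Muscle FAP was 6.14-fold above lung FAP, with no overlap (2.62, SE 0.21, adjusted p = 1.37e-08, edgeR). In that comparison the list had 9 higher, among them Nfkbib (1.12, SE 0.17, adjusted p = 3.74e-05) and Tnip1 (1.06, SE 0.20, adjusted p = 2.74e-05). The 5 lower included Nfkbia (-0.63, SE 0.18, adjusted p = 0.00632). The share called was 56% (48.2% of all genes) and the median 0.055, and 14 were lower under library size alone. Bcl3, an atypical IkB protein, stood at 84.1 CPM in muscle FAP, 65.8 in lung FAP and 0.645 in MEF (7.02, SE 0.21, adjusted p = 8.3e-13 and 6.66, SE 0.21, adjusted p = 1.04e-12).

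Most genes known to be induced by TNF in fibroblasts were higher in FAPs than in MEF. Of 26 tested of 28, 22 were higher and 2 lower in muscle FAP, and 21 higher and 2 lower in lung FAP, with median log2 fold changes of 3.44 and 4.003. The higher and lower calls together were 92.3% and 88.5% of the list, where 73.5% and 74.4% of all genes passed (36.1% and 37.8% of all genes were higher). This list was chosen with earlier results of these data known. Cxcl1, a neutrophil attractant, averaged 3121 CPM in muscle FAP and 2.19 CPM in MEF (10.47, SE 0.26, adjusted p = 4.19e-11). Ccl19, a lymphoid chemokine, averaged 126 CPM in lung FAP and 0.0506 CPM in MEF (11.21, SE 0.25, adjusted p = 9.16e-11, edgeR). Between the FAP groups 13 were higher in muscle and 6 lower (73.1%, against 48.2% of all genes), with a median of 0.82, or 0.70 with Ccl20, which had no count in lung FAP, set to its bound. Those higher in muscle included Cxcl5 (31.1 against 4.11 CPM, 2.92, SE 0.46, adjusted p = 0.000246). Those lower included Ccl19 (23.2 against 126 CPM, -2.44, SE 0.37, adjusted p = 9.1e-06) and Csf2 (0.699 against 7.92 CPM, -3.49, SE 0.96, adjusted p = 0.000502). Neutrophil and macrophage marker sums were also higher in lung FAP than in muscle FAP, and their part in these values was not tested.

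Genes that cleave or hold back members of the family were called in shares from 62.5% to 87.5%. Of 8, 3 were higher and 2 lower in muscle FAP against lung FAP (1 and 4 under library size alone), or 62.5% against 48.2% of all genes. Against MEF 4 were higher and 2 lower in muscle FAP (4 lower under library size alone), and 4 were higher and 3 lower in lung FAP. Those are 75% and 87.5%, against 73.5% and 74.4% of all genes. Adam17, the sheddase of TNF and its receptors, averaged 176 CPM in muscle FAP, 119 in lung FAP and 60.4 in MEF (0.57, SE 0.15, adjusted p = 0.0054 between the FAP groups, edgeR). Rhbdf2, which escorts ADAM17 to the cell surface, averaged 4.02, 22.9 and 16.6 CPM (-2.51, SE 0.31, adjusted p = 7.82e-07 against lung FAP and -2.05, SE 0.30, adjusted p = 1.47e-06 against MEF for muscle FAP). Its relative Rhbdf1, in the same list, went the other way and was more abundant, at 158, 130 and 49.5 CPM in muscle FAP, lung FAP and MEF. Timp3, an ADAM17 inhibitor, averaged 808, 3037 and 382 CPM (-1.91, SE 0.15, adjusted p = 1.07e-07 for muscle FAP against lung FAP and 2.99, SE 0.10, adjusted p = 1.55e-10 for lung FAP against MEF). Furin, a protease that processes BAFF and APRIL, averaged 142, 58.5 and 159 CPM (1.28, SE 0.14, adjusted p = 1.54e-06 between the FAP groups).

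**Figure D5:**
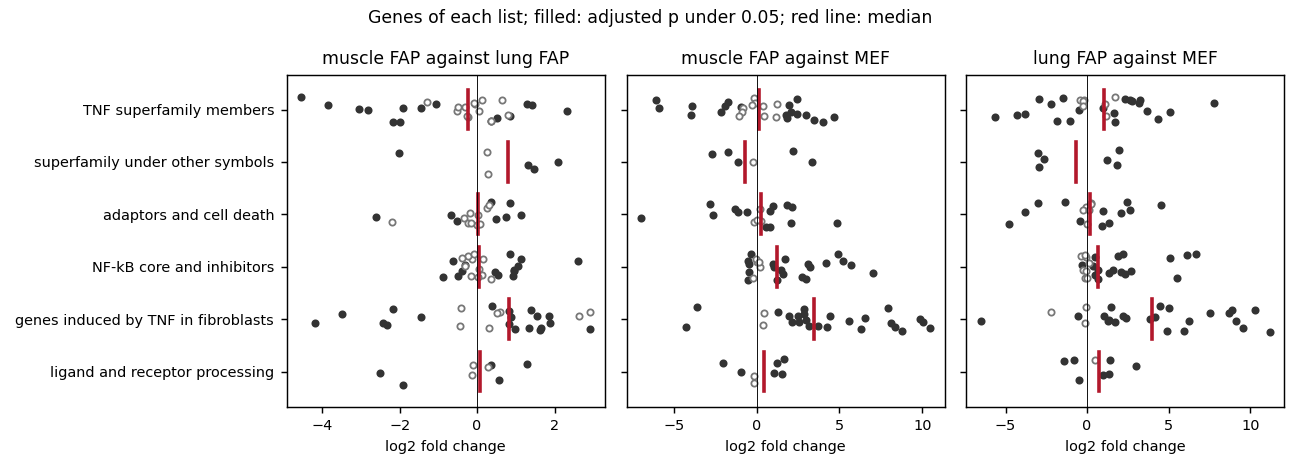
Log2 fold change of each tested gene of the family and of the 5 other lists (rows) in the 3 comparisons, with filled points at an edgeR adjusted p under 0.05 and a red line at the median. Of the 26 TNF-induced genes tested, 22 and 21 passed to the right of 0 in the comparisons of muscle FAP and lung FAP with MEF (medians 3.44 and 4.003) and 2 to the left in each, while the family itself spreads to both sides.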

How the data were processed

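RNA-seq was made from total RNA of 13 mouse libraries, extracted with Trizol and a column kit, per the labels' protocols. Per the submitters' processing notes, the authors used Bowtie2 2.1.0.0 with mm10, HTSeq and edgeR. The sources used here give no annotation and no strand, so a gene and its antisense partner cannot be told apart. The deposited values are raw read counts per gene, with 0 columns of other samples.

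Counts were fitted with edgeR 4.0.16 (R 4.3.3): TMM scaling, filterByExpr (15412 of 23418 genes kept), a robust quasi-likelihood fit of the 3 groups over all 13 libraries and Benjamini-Hochberg adjustment over all genes tested. Log2 fold changes come from this fit, and SE from the spread of log2 CPM (prior count 2). CPM per kb used the union of exons in GENCODE vM21. The fit was tested on simulated data. No libraries were duplicates.

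The family and the lists were chosen with earlier results of these data known, although the symbol rule that gave the members used no measured value. Members are described with their values where they passed in at least 1 comparison and averaged at least 1 CPM in their highest group, and the others in brief. From each list up to 3 passing genes with the largest change, among those that reached 5 CPM in the higher group, were named for muscle FAP against lung FAP and 1 for each other comparison, with other genes as examples. Alternatives covered scaling (DESeq2 1.42.0 size factors, library size, upper quartile), filters, tests (DESeq2, limma-voom with limma 3.58.1, glmTreat against a 2-fold change), the groups fitted, the replicate number as a block, and libraries left out.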

Additional observations from a re-analysis of the deposited data

Results flagged for a closer look

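Of 84 sets of a tested member in a group, 5 (5.95%) held a library far from the rest by Dixon's criterion, where chance gives about 5%. Each is given as a value. Tnfsf15 was 10.8 CPM in lung FAP 2 and 1.60 to 3.64 CPM in the other lung FAP libraries. Tnfsf11 was 1.80 CPM in lung FAP 1 and 0 to 0.428 CPM in the others. Tnfrsf4 had 0 CPM in lung FAP 1 and 0.782 to 1.08 CPM in the others. Tnfsf10 was 1.09 CPM in MEF 3 and 0.339 to 0.403 CPM in the other MEF libraries. Tnfrsf11a was 0.0582 CPM in muscle FAP 2, which is 2 reads, and 0.0288 to 0.0299 CPM, 1 read each, in the others.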

How the results depend on the processing

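Over the single members, alternatives left 1950 results with the same direction and side of the threshold, 46 lost the threshold, 35 gained it and 2 reversed. Both reversals came in muscle FAP against lung FAP under library size alone, for Ltbr (-0.051, adjusted p = 0.733) and Tnfrsf1b (-0.34, adjusted p = 0.0354). In that comparison library size alone moved the members called from 6 to 3 higher and from 9 to 14 lower, a filter of 5 CPM in 4 libraries gave 3 lower, and glmTreat against a 2-fold change gave 0 higher and 3 lower (3 higher and 8 lower at an unadjusted p under 0.05, and 6 higher by DESeq2 and by limma-voom against no change). The same filter, which tests 14 members, gave 6 higher and 5 lower in muscle FAP against MEF and 7 higher in lung FAP against MEF. Leaving out 1 library gave 4 to 6 higher and 8 to 10 lower in muscle FAP against lung FAP, 10 to 11 and 8 to 10 in muscle FAP against MEF, and 11 to 14 and 9 to 10 in lung FAP against MEF. Without lung FAP 2, 3 and 4, an alternative chosen after seeing the data, the counts were 4 and 8, 10 and 10, and 10 and 8. Same-numbered libraries of different groups correlated at -0.0484 to 0.0612 in their deviations from the group means. For muscle FAP and lung FAP the same-numbered pairs ranged from 0.0174 to 0.0612. Such values cannot decide whether same-numbered libraries share an animal or a batch. With the number as a replicate block the counts were 6 and 8, 10 and 9, and 12 and 9. In muscle FAP against lung FAP, glmTreat also lowered the higher and lower counts of the NF-kB list from 9 and 5 to 1 and 0, and of the adaptor list from 5 and 3 to 0 and 1. It lowered the higher counts of the TNF-induced list from 13 to 6, of the other superfamily genes from 3 to 1 and of the processing list from 3 to 1. Upper-quartile scaling gave 3 higher in the adaptor list. Members under 1 CPM rest on few reads and are limited by depth: 3 reads over a group are 0.0220 CPM in muscle FAP, 0.0180 in lung FAP and 0.0166 in MEF.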
